A study of Mus musculus with 6 samples.

Results

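The transcription factor T-bet was mapped at 3 genes of the TGF-β pathway, Smad3, Smad7 and Ldlrad4, in iTreg cells, regulatory T cells that are induced from naive mouse T cells in culture. The method was ChIP-seq, in which DNA crosslinked to a protein is pulled down with an antibody, sequenced, and reported as peaks, the stretches where reads pile up. The peaks described are those that overlapped any of 3 windows of the mouse mm9 build: chromosome 9 from 63400000 to 63700000 (Smad3), chromosome 18 from 75430000 to 75650000 (Smad7) and chromosome 18 from 68000000 to 68500000 (Ldlrad4). They numbered 23 of the 8925 peaks in the 3 lists, with 18 in wild-type (WT) replicate 1, 5 in WT replicate 2 and 0 in the T-bet knockout (KO) library. The windows were selected on the positions and scores of the peaks in these same lists, so the presence of peaks in them is a description and not a test.

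All groups shared strain and culture. Naive CD4 T cells were sorted from the spleens and lymph nodes of Balb/c mice aged 4 to 10 weeks, activated with plate-bound antibodies to CD3 and CD28 (each at 10 µg/ml), and grown for 7 days with TGF-β1 at 33 ng/ml plus IL-2 at 20 ng/ml. The groups used were WT cells (2 ChIP libraries) and T-bet KO cells (1 ChIP library), precipitated with the same rabbit serum against T-bet; the labels do not describe the KO allele. TGF-β1 was present in every culture, so no library shows these loci without the cytokine. The 3 input libraries, which hold chromatin before precipitation, were not analysed here. Peak lists carry no expression values, so the iTreg identity was not checked against markers.

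TGF-β binds a pair of receptor kinases at the cell surface, which phosphorylate Smad2 and Smad3. These join Smad4, enter the nucleus and bind DNA, and in naive T cells the pathway helps to switch on Foxp3, the factor that defines regulatory T cells. Smad7 is an inhibitory Smad that blocks the receptors and brings ubiquitin ligases to them. Ldlrad4 is a membrane protein that holds back the pathway by keeping Smad2 and Smad3 from the receptor. T-bet is a T-box factor known for driving the T helper 1 fate, and TGF-β is known to restrain T-bet in T cells.

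The lists differed in length: replicate 1 held 7996 peaks, replicate 2 held 851 and the KO list 78. Each peak carries a score from the authors' peak caller. The scale of the score is not stated, so it was used to rank peaks within a list, and heights were not compared between lists. A check put the same score cutoff of 100 on all lists, although equal scores may not mean the same in each. No read counts are given and depth is unknown, so a site without a peak in a short list is not shown to be unbound. Judged by a number at the start of the file names, replicate 2 and the KO library may have been handled together and replicate 1 apart; what the number means is not stated, and where the WT lists differ, library and batch cannot be told apart.

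A site was counted as shared where peaks of the WT lists had at least 1 bp in common. Of the 18 replicate 1 peaks in the windows, 5 were met by a replicate 2 peak: 3 of 10 at Smad3, 1 of 4 at Smad7 and 1 of 4 at Ldlrad4. That is 27.8% (exact 95% binomial interval 9.69 to 53.5%), beside 9.50% of all replicate 1 peaks. All 5 replicate 2 peaks in the windows were met by replicate 1, beside 85.4% of all replicate 2 peaks. Since the windows were picked for such peaks, nothing is read from the first excess, and 5 of 5 lies near the second background. The intervals cover counting error over peaks only, and peaks are not replicates of a condition.

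**Figure D1:**
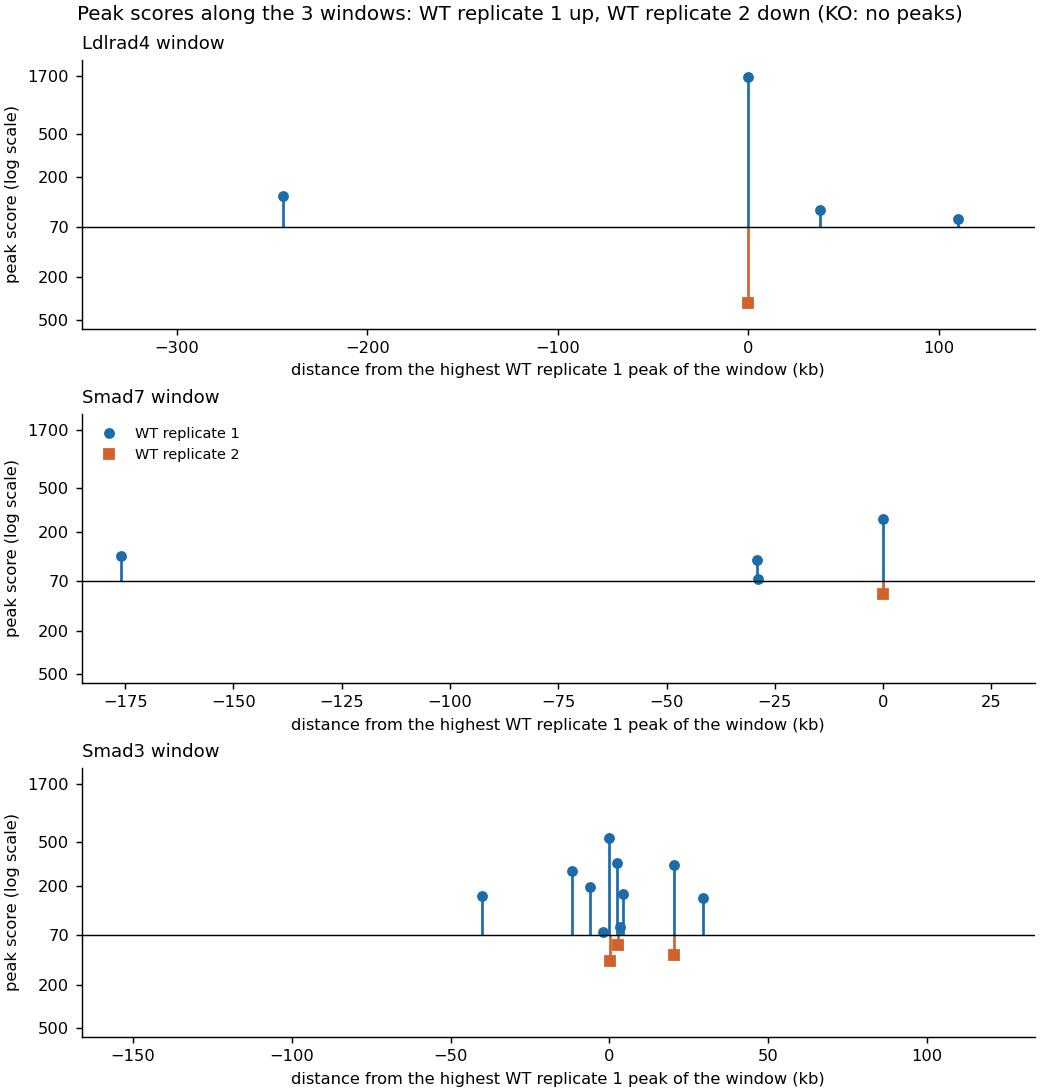
Peak score (vertical axis, log scale, starting at 70) against distance in kb from the highest WT replicate 1 peak of each window, with replicate 1 peaks drawn upward and replicate 2 peaks downward; each stem is 1 peak. Heights are not to be compared between the lists. The Ldlrad4 window holds 1 high peak in both lists, the Smad7 window 1 shared peak at a modest score, and the Smad3 window a group of 10 replicate 1 peaks, of which 3 have a replicate 2 peak beneath them.

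Smad3, the receptor-activated Smad that carries the signal to DNA, had the most peaks. Its 10 replicate 1 peaks spanned 69.8 kb of the 300 kb window, and their scores ran from 75.50 to 543 with a median of 180. The highest, here called site a, spanned chromosome 9 positions 63565945 to 63566342; its replicate 1 score was 543, with rank 134 of 7996. Replicate 2 had a peak there from 63565979 to 63566340, which scored 122 and ranked 345 of 851. Site a was the highest of the Smad3 window in both lists.

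Site b lay 2.17 kb beyond site a, from 63568514 to 63568833, and scored 324 in replicate 1 (rank 490). Its replicate 2 peak was wider, from 63568459 to 63568987, and scored 85.4 (rank 630), so 74.0% of that list scored as high or higher. Site b fell out when scores of at least 100 were required of both lists. Site c stood apart from sites a and b, 15.7 kb from the replicate 1 peak before it and 8.95 kb from the one after. It ran from 63586211 to 63586629 with a score of 311 in replicate 1 (rank 542), and from 63586190 to 63586593 with a score of 107 in replicate 2 (rank 432). Sites b and c therefore changed places between the lists. Their replicate 1 scores differed little, 324 against 311, and replicate 2 put site c above site b.

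The other 7 Smad3 peaks were found in replicate 1 alone. The strongest of them lay from 63554249 to 63554584 and scored 273, with rank 745, not far below the 311 of site c. The next, from 63559771 to 63560030, scored 193. The remaining 5 scored between 75.50 and 166, and their ranks ran from 1960 to 7503. The list thus held weak peaks between strong ones: 1 from 63564056 to 63564210 with a score of 75.50 stood 1.73 kb before site a, and 1 from 63569482 to 63569727 with a score of 83.5 stood 0.648 kb after site b.

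Most of the Smad3 peaks formed a close chain. When replicate 1 peaks with gaps of up to 10 kb were linked, 7 peaks from 63554249 to 63570482 joined into 1 chain of 16.2 kb, which included sites a and b. Replicate 1 held 6015 such chains in all, of which 4768, or 79.3%, were single peaks, and 24, or 0.399%, had 7 peaks or more. The Smad3 window was selected on these same peaks, so the place of its chain among all chains is a description only. Among those 24 chains, 6 had at least 2 peaks met by replicate 2, the chain at Smad3 included, while 9 had none. No chain of the 24 was met by a KO peak. Over the whole list, 9.50% of replicate 1 peaks were met by replicate 2 and 0.550% by a KO peak, shares of peaks and not of chains. With so low a share for the KO list, nothing is read from its absence in these chains. With gaps of up to 20 kb, an alternative chosen after the data were seen, site c and its neighbour joined as well, giving 9 peaks over 41.5 kb with 3 met by replicate 2.

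Smad7, the inhibitor that acts at the receptor, had 4 replicate 1 peaks and 1 replicate 2 peak in its 220 kb window. The shared peak spanned chromosome 18 positions 75614853 to 75615197; its replicate 1 score was 263, with rank 800 of 7996. In replicate 2 it ran from 75614884 to 75615169 and scored 92.6, with rank 536 of 851, so 63.0% of that list scored as high or higher. The site was shared but stood in the lower part of the replicate 2 list, and it fell out when scores of at least 100 were required of both lists. A pair of weaker replicate 1 peaks lay 28.7 kb before it, from 75585770 to 75585996 with a score of 111 and from 75586004 to 75586177 with a score of 72.7, only 7 bp apart. The fourth, from 75438920 to 75439077, scored 118 and lay 8.92 kb inside the window's lower edge. None of these 3 had a replicate 2 peak.

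Ldlrad4, the membrane inhibitor, had the highest peak of the 3 windows and little else. That peak spanned chromosome 18 positions 68349488 to 68350026, and its replicate 1 score of 1662 ranked 15 of 7996. In replicate 2 it ran from 68349468 to 68349966, scored 346 and ranked 26 of 851, so it was among the strongest peaks of both WT lists. The window's other 3 replicate 1 peaks were weaker: the one from 68105297 to 68105550 scored 135, the one from 68387258 to 68387415 scored 99.6, and the one from 68459921 to 68460053 scored 82.7. Each stood alone, with gaps of 37.2 to 244 kb between neighbours.

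The ranks of the Ldlrad4 peak were then used as cutoffs for both lists. Its window was selected on these scores and the cutoffs are its own ranks. The site therefore reaches them by construction, and the counts are a description only. Of the 15 replicate 1 peaks at or above the rank of the Ldlrad4 peak, 3 were met by replicate 2. The share was 9.50% over that whole list and 47.1% in its highest score decile. Of the 26 replicate 2 peaks at or above its rank there, 24 were met by replicate 1, beside 85.4% of that list. KO peaks met 1 of the 15, beside 0.550% of the replicate 1 list, and 5 of the 26, beside 5.41% of the replicate 2 list. In the whole series 3 sites reached both ranks, and 1 of them, on chromosome 17 from 4626144 to 4626614, was also a KO peak. The other two, without a KO peak, were the Ldlrad4 site and a site at chromosome 15 positions 59973053 to 59973778, whose scores were 1786 in replicate 1 and 591 in replicate 2.

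**Figure D2:**
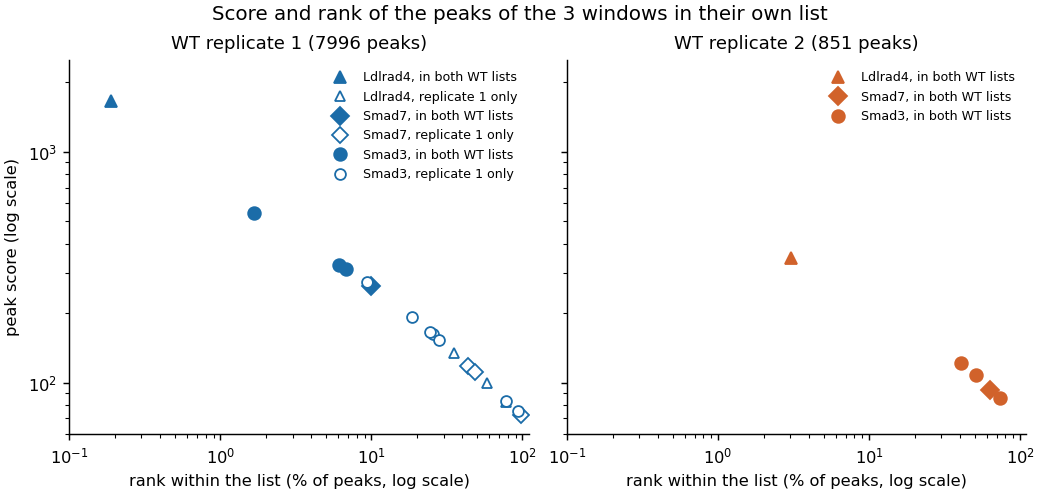
Score against rank within the list (percent of its peaks, both axes on log scales) for the peaks of the 3 windows, with WT replicate 1 on the left and WT replicate 2 on the right; filled symbols mark peaks found in both WT lists. The Ldlrad4 peak stands highest in both panels. The other 4 shared sites lie within the top 10.0% of replicate 1 and between 40.5% and 74.0% in replicate 2. These percentages are of lists of 7996 and 851 peaks and are not comparable. As plain ranks, the 4 sites ran from 134 to 800 in replicate 1 and from 345 to 630 in replicate 2.

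The 5 shared sites had the highest replicate 1 scores of their windows. At Smad3 the lowest shared peak scored 311 and the highest unshared one 273; the corresponding scores were 263 and 118 at Smad7, and 1662 and 135 at Ldlrad4. This order was common in the series, although the stretches compared were matched on length only, not on their numbers of shared and unshared peaks. Among stretches of the same length that held both shared and unshared replicate 1 peaks, every shared peak outscored every unshared one in 52.0% of those of 500 kb, 62.5% of those of 220 kb and 58.7% of those of 300 kb. By decile of the replicate 1 list, 6 window peaks fell in the highest, which began at 262.61. Of these 6, 5 were shared, beside 47.1% of all peaks in that decile. The windows were picked for such peaks, so nothing is read from this excess. The other 12 fell below the highest decile and none was shared. Of these, 1 lay in the ninth decile, where 16.5% of all peaks were shared, and 3 in the eighth, with 8.25%. In the deciles below, the share ran from 1.88% to 5.13%. With shares this low, nothing is read from the lack of shared peaks among the 12. The Smad7 site, at 262.61, was itself the lowest peak of the highest decile.

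Shared peaks had close midpoints in both libraries and overlapped over most of their length. Peak midpoints differed by 1.5 bp at Smad7, by 16.0 bp, 49.5 bp and 28.5 bp at Smad3 sites a, b and c, and by 40.0 bp at Ldlrad4. Their median, 28.5 bp, was close to the 31.0 bp over all 760 overlapping pairs of the series. Replicate 1 peaks shared between 82.9% and 100% of their length with replicate 2. Replicate 2 peaks shared 94.8% to 100% of theirs with replicate 1 at 4 of the sites, and 60.5% at site b. The replicate 2 peak was the wider one only at site b, with 529 bp against 320 bp, while over the series it was wider in 528 of 760 pairs.

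**Figure D3:**
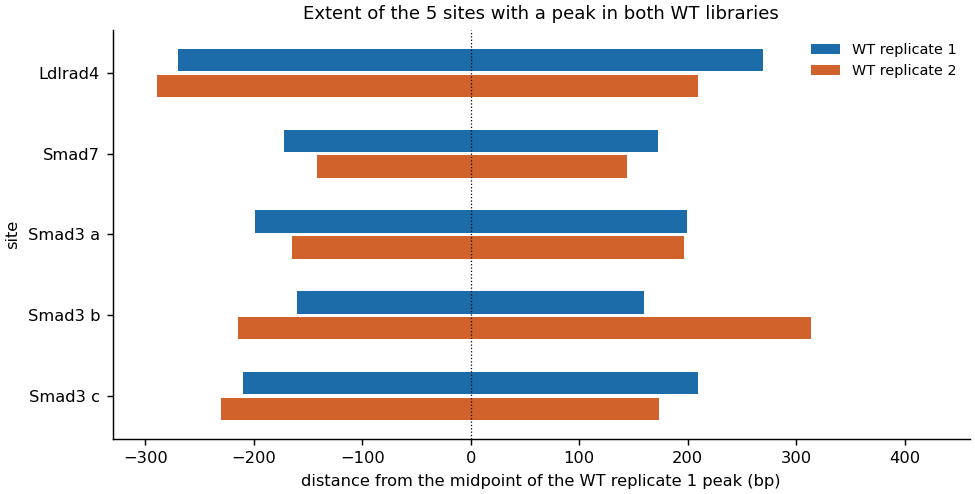
Extent in bp of the 5 sites found in both WT libraries, drawn around the midpoint of the replicate 1 peak (dotted line), 1 bar per library. Bars of a site nearly coincide, except at Smad3 site b, where the replicate 2 peak is 529 bp wide and the replicate 1 peak 320 bp.

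Width went with score among the replicate 1 peaks of the windows. For the 5 replicate 2 peaks no correlation was computed. Over the 18 replicate 1 peaks, Spearman's rho between width and score was 0.89, beside 0.68 over all 7996 replicate 1 peaks; these are peaks of 1 library and not independent. Over all 851 replicate 2 peaks rho was 0.46, and over the 78 KO peaks 0.02. The widest of the 5 replicate 2 peaks in the windows, that of site b with 529 bp, had the lowest score, 85.4. The next widest, that of Ldlrad4 with 499 bp, had the highest, 346. At Smad7 and Ldlrad4 the shared peak was also the widest, with 345 bp and 539 bp. At Smad3 the shared peaks were 320 to 419 bp wide, and an unshared one, that with the score of 273, reached 336 bp.

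The windows, selected on their peaks, were denser than the autosomes at large, from which nothing is read. Replicate 1 had 33.3 peaks per Mb at Smad3, 18.2 at Smad7 and 8 at Ldlrad4, beside 3.19 over the autosomes. Replicate 2 had 10.0, 4.55 and 2.00 peaks per Mb in the same order, beside 0.338. When the autosomes and X were divided into tiles as long as each window, 0.831% of 8786 tiles held the 10 or more replicate 1 peaks seen at Smad3, 5.21% of 11985 tiles held the 4 or more seen at Smad7, and 14.9% of 5269 tiles held the 4 or more seen at Ldlrad4. Both the replicate 1 and the replicate 2 count of the window were reached in 31 tiles for Smad3, 265 for Smad7 and 328 for Ldlrad4. These shares place the counts that chose the windows and are no evidence that a window stands out.

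**Figure D4:**
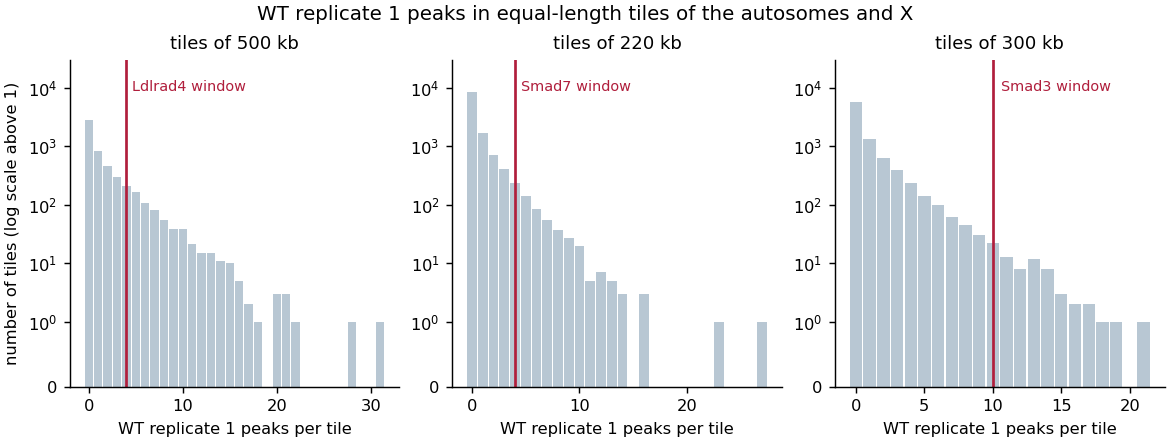
Number of tiles (vertical axis, log scale above 1) by the WT replicate 1 peaks they held, for tiles of the autosomes and X as long as each window; the red line marks the window's own count. The Smad3 line is at 10 peaks and the Smad7 and Ldlrad4 lines are each at 4; the windows were selected on these peaks, so their place among the tiles is a description only.

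The KO library, which measures what the serum pulls down without T-bet, had no peak in any window. None of the 18 replicate 1 peaks was met by a KO peak, beside 0.550% of that list, and none of the 5 replicate 2 peaks, beside 5.41%. With 78 peaks the KO list had 0.0299 peaks per Mb over the autosomes, which amounts to 0.0305 peaks over the 1.02 Mb of the windows, so a count of 0 there does not separate the windows from the rest of that list. The nearest KO peak to the highest Smad3 site lay 1.11 Mb away, at positions 62456306 to 62456506 of chromosome 9; it scored 79.9 and was met in both WT lists. On chromosome 18, which held 2 KO peaks, the nearest lay 30.4 Mb from the Smad7 site and 23.1 Mb from the Ldlrad4 site. The lists give no read counts per site, and no test of genotype was run.

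Peaks also lay outside the windows. Windows wider by 100 kb on each side held 20 replicate 1 peaks against 18, and whether the flanks are poor in peaks was not tested. The closest replicate 1 peaks were 54.9 kb below the Smad7 window (score 85.9) and 64.9 kb below the Ldlrad4 window (score 73.6). Those next above were 110 kb from the Smad7 window (score 151), 352 kb from the Ldlrad4 window (score 668) and 321 kb from the Smad3 window (score 143), and the nearest below Smad3 was at 153 kb (score 80.8). The nearest replicate 2 peaks outside were 0.944 Mb and 1.35 Mb from the Smad3 window, and on chromosome 18 they were 2.43 Mb below the Ldlrad4 window and 3.61 Mb above the Smad7 window, with none between these windows. No further shared site therefore lay within 100 kb of a window.

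The windows name genes by the selection rule and not by an annotation. No mm9 gene annotation or sequence was used, so whether a peak lies in an exon, an intron or between genes, or near a start site, is not given here. By gene order in the RefSeq table of GRCm38.p6, the protein-coding neighbours are Aagab and Smad6 for Smad3, Dym and Ctif for Smad7, and Cep192 and Fam210a for Ldlrad4, so a peak in a window may lie closer to one of these. Smad6, another inhibitory Smad, is next to Smad3 in that order, and Smad2, the partner of Smad3 in signalling, is the third gene after Smad7. Peaks at Smad6, Smad2 and the other genes of the pathway were not analysed here.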

How the data were processed

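T-bet ChIP-seq peak lists of 2 WT and 1 KO iTreg library were used, grouped by sample title. CASAVA, Bowtie2, MACS 1.4 and build mm9 are named in the submitters' processing notes; their settings and the control behind each list were not given in the sources used here. The authors deposited 1 list per library, not pooled, with a score per peak whose scale is not stated; the lowest score in any list was 70.10. Library fragments were 150 to 350 bp and reads 35 or 50 bp, per the labels. The labels do not say whether the WT libraries are from different mice or cultures, and their agreement may then be technical.

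Positions are printed counted from 1. Overlaps, ranks, gaps and tiles were computed with Python 3.11.15, numpy 2.4.6, pandas 2.3.3 and scipy 1.17.1, and figures with matplotlib 3.10.9. Chromosome lengths came from GenomeInfoDb 1.38.1. Overlap counting was tested on simulated data. No significance test was run. All 23 peaks were described; by rule, shared peaks, KO peaks, the 3 highest of each WT list per window and the nearest outside are named, and the choice of any others was made with their values in view. The windows, members and gene list were chosen with earlier results of these data known. A list of other TGF-β pathway genes was planned but not counted, for want of an mm9 annotation.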

Additional observations from a re-analysis of the deposited data

How the results depend on the processing

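Of 49 recomputed values, 46 stayed within 1.5 times the reported count or within the interval of the reported share, and 3 moved, all with scores of at least 100: the Smad7 window then had 0 shared sites, and replicate 2 had 3 peaks in the windows, 3 of them met by replicate 1. Smad3 kept 2 shared sites there, a and c, and lost site b. A reciprocal overlap of 50%, midpoints within 250 bp, merging within 500 bp and windows wider by 100 kb on each side left 1, 1 and 3 shared sites at Ldlrad4, Smad7 and Smad3. The shared peaks overlapped by at least 60.5%, and their midpoints were at most 49.5 bp apart. No replicate 2 peak outside a window was nearer to it than 0.944 Mb. For the overlap, midpoint and wider-window settings, the unchanged counts of shared sites are therefore no sign of stability. No WT peak in the windows was met by a KO peak in any setting, KO peaks extended by 1 kb and either WT library left out included. No setting could have changed this, since the KO peak nearest to any window lay 0.943 Mb outside it. The counts of KO peaks, and of WT peaks met by one, are among the 46 and are no sign of stability. With replicate 1 left out the WT peaks numbered 5, and with replicate 2 left out 18; the sharing of sites cannot be computed from 1 list. Shifting the tile grid changed the share of tiles with as many replicate 1 peaks as the Smad3 window from 0.831% to 0.798%. No paired analysis was possible because numbered replicates of the WT ChIP have matching numbers only among the inputs, which were not used here, and the KO library is single. Unknown depth limits every statement on missing peaks.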
